A study of Mus musculus with 13 samples.

Results

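The genes described here are 10 genes that glucocorticoids induce or act through in liver, Nr3c1, Fkbp5, Tsc22d3, Gadd45b, Gadd45g, Sgk1, Mt1, Mt2, Cdkn1a and Errfi1, taken from 22180 named genes measured in mouse liver. They were taken by their symbol, each had 1 probe set on the array, and all 10 were above the limit set for dim genes, beside 13308 genes tested in all. Affymetrix arrays were hybridised with total liver RNA of male C57Bl/6J mice, 13 arrays in all. All mice were 6 weeks old when they began a diet with 60% fat, which they ate freely for 4 weeks. For the next 4 weeks the HFD group (4 arrays) stayed on that diet, and the CANA group (4 arrays) had canagliflozin at 25 to 30 mg/kg beside it. The CR group (5 arrays) had its calories cut by 15 to 30% so that its weight matched that of the treated mice. Canagliflozin blocks the glucose transporter SGLT2 of the kidney tubule, so that glucose is lost in urine. No group without the fat diet is among these arrays, and the labels do not say whether each array came from 1 animal, so p-values measure the spread between these arrays.

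Glucocorticoids are adrenal steroids whose release rises with fasting and stress and follows the time of day. In the liver cell they bind the receptor encoded by Nr3c1, which is held ready by heat shock protein complexes, moves into the nucleus and switches on genes of glucose production and of feedback on its own action. Several of the genes below also answer to other signals, among them zinc, p53, growth factor signalling and tissue handling. Whole liver was used, so fewer cells of a type and less RNA per cell cannot be told apart.

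The metallothionein genes Mt1 and Mt2 lie side by side on chromosome 8, with annotated starts 6471 bases apart, and are known to answer to metals through short response elements. Promoter windows of 250 bases, ending at the annotated start, were at hand from RefSeq (GRCm38.p6) for 9 of the 10 genes, in 18 windows. Searched on both strands were TGCACNC and TGCGCNC (the metal response core, where N is any base) and the glucocorticoid response element, written as the arms GNACA and TGTNC with 3 bases of any kind between them. The windows below are those of the metallothionein genes, whose values moved together across arrays, and the window of Sgk1 that held the glucocorticoid letters. Capitals mark the matches. In Mt1 the upstream match is the glucocorticoid element and the downstream one the metal core, in Mt2 all 3 matches are the metal core, and in Sgk1 the match is the glucocorticoid element.
Mt1, chr8:94178839-94179088, plus strand: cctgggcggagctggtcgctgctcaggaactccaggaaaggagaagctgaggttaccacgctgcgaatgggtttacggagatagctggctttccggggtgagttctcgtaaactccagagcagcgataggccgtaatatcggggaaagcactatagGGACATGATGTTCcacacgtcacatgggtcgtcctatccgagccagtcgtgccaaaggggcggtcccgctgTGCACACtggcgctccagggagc
Mt2, chr8:94172368-94172617, plus strand: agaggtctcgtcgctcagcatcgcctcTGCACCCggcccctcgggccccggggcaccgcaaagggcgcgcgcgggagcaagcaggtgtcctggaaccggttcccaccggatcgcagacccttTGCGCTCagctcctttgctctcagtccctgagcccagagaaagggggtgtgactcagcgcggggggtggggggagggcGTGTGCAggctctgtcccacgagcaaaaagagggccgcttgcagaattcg
Sgk1, chr10:21993640-21993889, plus strand: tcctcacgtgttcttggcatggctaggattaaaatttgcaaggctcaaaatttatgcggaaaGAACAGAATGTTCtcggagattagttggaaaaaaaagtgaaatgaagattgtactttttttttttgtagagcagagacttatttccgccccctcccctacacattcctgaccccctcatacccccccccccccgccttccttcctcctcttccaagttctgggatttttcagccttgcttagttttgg

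The glucocorticoid letters stood 94 to 82 bases before the Mt1 start and 188 to 176 bases before that Sgk1 start, and 0.387% of all 32851 promoter windows held them. Mt1 and Sgk1 were the members with a match, Sgk1 in 1 of its 6 windows. The metal core was found in 21.4% of all windows and 3 or more times in 1.26%, with 3 matches in Mt2, 1 in Mt1 and 1 in Gadd45g. A single arm of the glucocorticoid element, AGAACA, was found in 16.1% of all windows, and among the members in 3 windows of Sgk1 and 1 of Tsc22d3. In the Sgk1 window printed above, 2 of its 3 single-arm matches overlap the full element. The E-box CACGTG, held by 6.02% of windows, was found upstream of Fkbp5, Gadd45b, Gadd45g and Sgk1. A window of Errfi1 held the cAMP response element TGACGTCA, which 1.55% of windows hold. These matches describe letters and show no binding. The counts hold only for the 250 bases before each annotated start, and elements outside the windows were not searched.

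None of the 10 genes passed the test in any of the 3 comparisons. The share of all tested genes past a limma adjusted p of 0.05 was 0.165% in CANA vs HFD, 0% in CR vs HFD and 0.150% in CANA vs CR. At an unadjusted p under 0.05 the members numbered 2 of 10 in CANA vs HFD (Gadd45g higher, Nr3c1 lower), where 8.82% of all genes did so. They numbered 0 of 10 in CR vs HFD, against 3.74% of all genes, and 3 of 10 in CANA vs CR (Mt1 and Mt2 higher, Tsc22d3 lower), against 8.43%. The median difference of the 10 genes on the log2 scale was 0.25 in CANA vs HFD, 0.14 in CR vs HFD and -0.00 in CANA vs CR, while that of all tested genes was -0.01, -0.01 and -0.00. Above zero were 8, 7 and 5 of the 10 members, against 46.1, 46.4 and 48.8% of all genes. The comparisons share arrays, so their values are given side by side and were not set against each other.

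**Figure D1:**
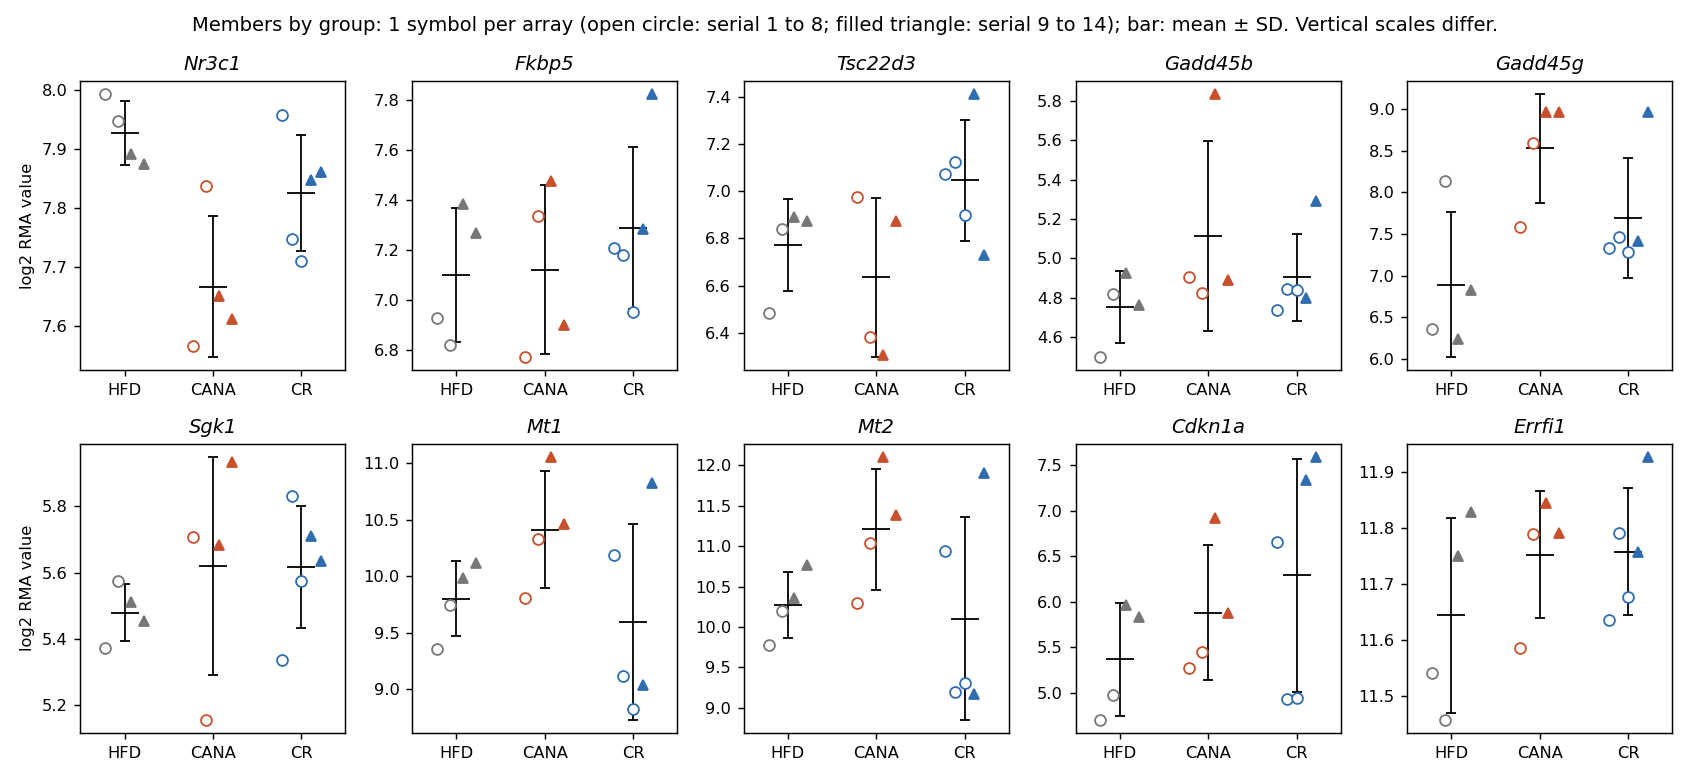
Log2 RMA value (vertical axis, a scale for each gene) of the 10 genes in each array of HFD, CANA and CR, with open circles for serial numbers 1 to 8, filled triangles for 9 to 14 and bars for mean and SD. The 4 CANA arrays of Nr3c1 lie below the 4 HFD arrays, and CR replicate 5 is the highest of all 13 arrays in 4 of the 10 genes.

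Nr3c1 encodes the glucocorticoid receptor itself. On the log2 scale it stood at 7.99, 7.95, 7.89 and 7.87 in HFD replicates 1 to 4, 7.57, 7.84, 7.65 and 7.61 in CANA replicates 1 to 4, and 7.96, 7.75, 7.71, 7.85 and 7.86 in CR replicates 1 to 5. All 4 CANA arrays lay below the lowest HFD array, the nearest being CANA replicate 2, and 4 of 5 CR arrays did so too. Nr3c1 was the 1 member of 10 whose CANA and HFD arrays did not overlap, where 4.90% of all tested genes had no overlap. None of the 10 was free of overlap in CR vs HFD or in CANA vs CR, against 1.17 and 2.93% of all genes. The CANA mean was lower by 0.26 on the log2 scale (difference -0.26, SE 0.09, 95% interval -0.45 to -0.07), which did not pass over all genes (unadjusted p = 0.0102, limma adjusted p = 0.361). The difference was -0.27 within serial numbers 1 to 8 and -0.25 within 9 to 14. CR differed from HFD by -0.10 (95% interval -0.28 to 0.08, limma adjusted p = 0.999) and CANA from CR by -0.16 (95% interval -0.34 to 0.02, limma adjusted p = 0.652). The receptor gene also varied little within groups: its SD of 0.095 was above that of 5.28% of the tested genes.

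Fkbp5 encodes a co-chaperone that lowers the hormone affinity of the receptor and is itself induced by it, which makes it a common readout of glucocorticoid action. Fkbp5 values (log2) were 6.93, 6.82, 7.38 and 7.27 in HFD, 6.77, 7.33, 7.48 and 6.90 in CANA and 7.21, 7.18, 6.95, 7.28 and 7.82 in CR, in order of replicate number. The groups overlapped, with CR replicate 5 above every other array. CANA and HFD differed by 0.02 (SE 0.19, 95% interval -0.38 to 0.42, limma adjusted p = 0.988). The sign of this difference turned without CANA replicate 2 or 3 or HFD replicate 1 or 2. CR was above HFD by 0.19 (95% interval -0.20 to 0.57, limma adjusted p = 0.999), and by 0.05 without CR replicate 5.

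Tsc22d3, the glucocorticoid-induced leucine zipper gene, encodes a mediator of the anti-inflammatory action of the hormone. Tsc22d3 stood at 6.48, 6.84, 6.89 and 6.88 in HFD, 6.97, 6.38, 6.31 and 6.87 in CANA and 7.07, 7.12, 6.90, 7.41 and 6.73 in CR (log2). In CR, 4 of 5 arrays lay above the highest HFD array, and in CANA 2 of 4 lay below the lowest. CANA was below CR by 0.41 on average (difference -0.41, SE 0.16, 95% interval -0.75 to -0.07), and this did not pass over all genes (unadjusted p = 0.0197, limma adjusted p = 0.510). The CR vs HFD difference was 0.27 (SE 0.16, limma adjusted p = 0.999) and the CANA vs HFD difference -0.14 (SE 0.17, limma adjusted p = 0.893). Among the lower serial numbers (1 to 8) the latter was 0.02, and among the higher ones (9 to 14) -0.29. It was -0.03 without CANA replicate 3 and -0.05 without CANA replicate 2.

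Sgk1 encodes a kinase that controls ion channels and transporters and is induced by glucocorticoids and mineralocorticoids. Its log2 values were 5.37, 5.58, 5.51 and 5.46 in HFD, 5.71, 5.16, 5.68 and 5.93 in CANA and 5.34, 5.83, 5.57, 5.71 and 5.63 in CR. The HFD arrays lay close together, and both other groups reached below and above them, with 3 CANA and 3 CR arrays above the highest HFD array. Sgk1 differed by 0.14 in CANA vs HFD (95% interval -0.16 to 0.44), by 0.14 in CR vs HFD (95% interval -0.15 to 0.43) and by 0.00 in CANA vs CR (95% interval -0.28 to 0.29). The limma adjusted p values were 0.855, 0.999 and 0.999. The CANA vs HFD value was 0.30 without CANA replicate 2 and 0.037 without CANA replicate 4, and the CR vs HFD value 0.085 without CR replicate 2 and 0.21 without CR replicate 1.

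**Figure D2:**
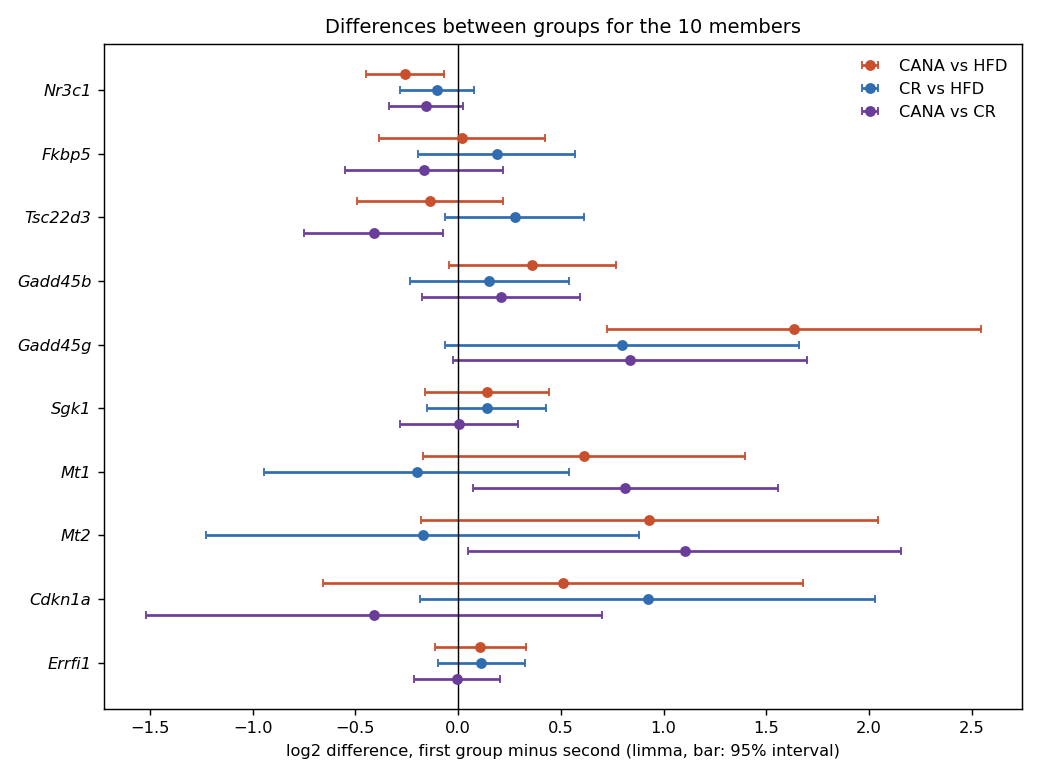
Log2 difference between group means (horizontal axis, points) with its 95% interval from limma (bars) for each gene in the 3 comparisons. The intervals of Nr3c1 and Gadd45g in CANA vs HFD and of Tsc22d3, Mt1 and Mt2 in CANA vs CR leave out 0 before adjustment over all genes, and those of Mt2 and Cdkn1a are the widest in each comparison.

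Gadd45g had the largest difference between CANA and HFD among the members. It belongs to the Gadd45 family of small stress-induced proteins that bind MAP kinase kinases and cell cycle kinases. Its log2 values were 6.36, 8.14, 6.24 and 6.83 in HFD, 7.58, 8.60, 8.96 and 8.97 in CANA and 7.33, 7.46, 7.28, 7.41 and 8.97 in CR. In CANA, 3 of 4 arrays lay above the highest HFD array, replicate 2, which stood more than 1 log2 unit above the other HFD arrays. The CANA mean was 3.10-fold that of HFD (log2 difference 1.63, SE 0.43, 95% interval 0.72 to 2.54), without passing over all genes (unadjusted p = 0.00157, limma adjusted p = 0.185). The difference was 0.84 within serial numbers 1 to 8 and 2.43 within 9 to 14, and over the fits that each left out 1 array it ran from 1.42 to 2.05. CR stood between, at 0.80 above HFD (SE 0.41, 95% interval -0.07 to 1.66, limma adjusted p = 0.999). That value rested on few arrays: it was 0.48 without CR replicate 5 and 1.21 without HFD replicate 2, and 0.11 within serial numbers 1 to 8 against 1.66 within 9 to 14.

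Gadd45b, the related gene, stood apart in 2 arrays. Log2 values were 4.50, 4.82, 4.92 and 4.77 in HFD, 4.91, 4.82, 5.83 and 4.89 in CANA and 4.74, 4.85, 4.84, 4.80 and 5.29 in CR. Apart from CANA replicate 3 and CR replicate 5, every array lay at 4.92 or below, while the dimmest gene tested averaged 3.95. The CANA vs HFD difference of 0.36 (SE 0.19, limma adjusted p = 0.628) was 0.12 without CANA replicate 3. CR differed from HFD by 0.15 (SE 0.18, limma adjusted p = 0.999), and by 0.05 without CR replicate 5.

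The immediate-early genes, which tissue handling and stress can induce within minutes, stood high in the same CANA array. The mean deviation of their 11 tested members from the gene means was 0.59 in CANA replicate 3 and 0.20 or less in every other array, with 0.13 in CR replicate 5. Their part in the Gadd45 values was not tested. None of the 11 was called in any comparison, nor had any an unadjusted p under 0.05 in CANA vs HFD, with a median difference of 0.14. Btg2, an antiproliferative gene of that list, was at 0.47 (SE 0.31, limma adjusted p = 0.734), Atf3, a stress-induced transcription factor, at 0.22 (limma adjusted p = 0.701), and Ier2 at -0.20 (limma adjusted p = 0.675).

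The metallothioneins bind zinc and copper, and their genes are induced by metals, glucocorticoids and inflammatory signals. Mt1 was at 9.36, 9.74, 9.98 and 10.11 in HFD, 9.80, 10.33, 11.05 and 10.46 in CANA and 10.19, 9.12, 8.82, 9.04 and 10.82 in CR on the log2 scale. Mt2 was at 9.78, 10.20, 10.36 and 10.77 in HFD, 10.30, 11.04, 12.10 and 11.39 in CANA and 10.94, 9.20, 9.30, 9.17 and 11.91 in CR. For both genes 3 of 4 CANA arrays lay above the highest HFD array. The CR arrays fell apart into 3 below every HFD array (replicates 2, 3 and 4) and 2 above every one (replicates 1 and 5).

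Against HFD, CANA was higher by 0.61 in Mt1 (SE 0.37, 95% interval -0.17 to 1.39, limma adjusted p = 0.694) and by 0.93 in Mt2 (SE 0.52, 95% interval -0.18 to 2.04, limma adjusted p = 0.653). Without CANA replicate 3 these values were 0.40 and 0.63. Against CR the CANA mean was 1.76-fold in Mt1 (log2 difference 0.81, 95% interval 0.07 to 1.56, unadjusted p = 0.0336, limma adjusted p = 0.552). In Mt2 it was 2.15-fold (1.10, 95% interval 0.05 to 2.16, unadjusted p = 0.0413, limma adjusted p = 0.568), and neither passed over all genes. Without CR replicate 5 the CANA vs CR differences were 1.12 and 1.55 (limma adjusted p = 0.192 and 0.191), and without CANA replicate 3 they were 0.60 and 0.81 (limma adjusted p = 0.721 and 0.741). CR and HFD differed by -0.20 in Mt1 (95% interval -0.94 to 0.54) and by -0.17 in Mt2 (95% interval -1.23 to 0.88), each at a limma adjusted p of 0.999. Without CR replicate 5 these were -0.51 and -0.62. Without CR replicate 2, 3 or 4 they were -0.082, -0.0084 and -0.062 in Mt1, and 0.054, 0.028 and 0.061 in Mt2, where the sign turned.

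The metallothionein genes varied as one. Over the 13 arrays Mt1 and Mt2 correlated at a Pearson r of 0.989 and a Spearman rho of 0.984 (two-sided permutation p = 1e-05 for each, the smallest that 100000 resamples can give, and 4.5e-04 after Benjamini-Hochberg adjustment over 45 pairs of members). Without the 2 arrays farthest from the Mt1 median r was 0.994, within serial numbers 1 to 8 it was 0.979 and within 9 to 14 it was 0.994. The permutations moved arrays freely between the groups, and with the group means taken off r was 0.986. Both genes encode closely related proteins, so probes could read both messages, and how far this adds to the correlation was not tested.

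**Figure D3:**
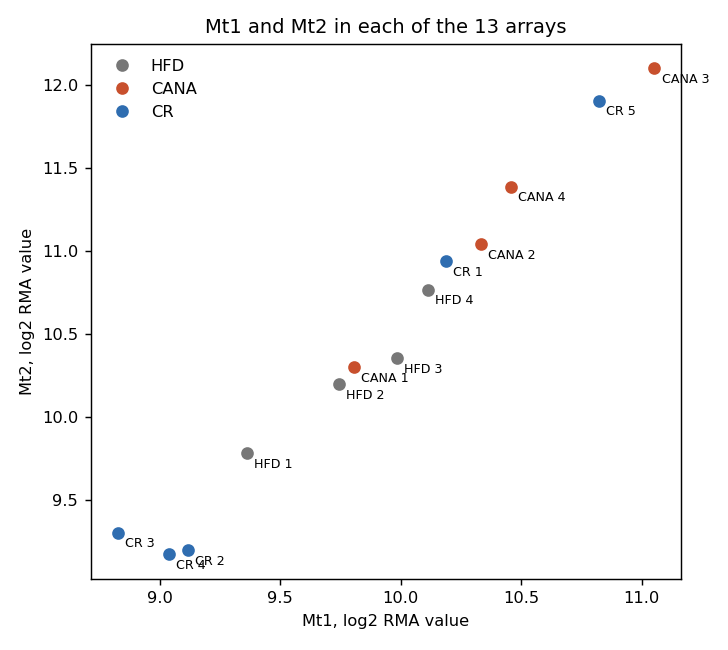
Mt2 against Mt1 in each of the 13 arrays (both axes log2 RMA value), coloured by group and marked with group and replicate. CANA replicate 3 and CR replicate 5 lie at the upper end and CR replicates 2, 3 and 4 at the lower end, so the CR group takes up nearly the whole range.

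Genes of zinc handling were set beside the metallothioneins. Of 8 listed, 4 were tested, Mt3 and Mt4 were dim and Slc30a1 and Slc30a10 were not analysed here. None was called. Mtf1, the metal-sensing transcription factor of the metallothionein genes, was at -0.07 in CANA vs HFD (SE 0.11, limma adjusted p = 0.930). The zinc importer genes Slc39a4 and Slc39a8 were at -0.20 (SE 0.21) and 0.05 (SE 0.11), with limma adjusted p values of 0.866 and 0.952. Acute phase genes, which inflammation induces together with metallothioneins, had 9 of 11 tested members (of 12 listed, Saa1 not analysed here) above zero in CANA vs HFD and 2 of 11 in CR vs HFD, with medians of 0.10 and -0.07 and none called. Haptoglobin (Hp) was at 0.15 in CANA vs HFD (SE 0.10, limma adjusted p = 0.747), Fgg at 0.11 and Itih4 at 0.10. In CANA vs CR 9 of the 11 were above zero and 2 below (median 0.11), where 48.8% of all genes were above zero. None was called there, and 2 had an unadjusted p under 0.05, against 8.43% of all genes. These were Saa2 at 1.00 (SE 0.42, limma adjusted p = 0.544) and Orm2 at 0.71 (SE 0.33, limma adjusted p = 0.585).

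Cdkn1a encodes p21, an inhibitor of cyclin-dependent kinases that p53 and glucocorticoids induce. On the log2 scale Cdkn1a was at 4.70, 4.98, 5.96 and 5.83 in HFD, 5.27, 5.45, 6.93 and 5.88 in CANA and 6.65, 4.94, 4.94, 7.33 and 7.59 in CR. In CR, replicates 1, 4 and 5 lay above every HFD array and replicates 2 and 3 near the lower HFD arrays. The CR vs HFD difference was 0.92 (SE 0.52, 95% interval -0.19 to 2.03, limma adjusted p = 0.999), and it ran from 0.60 without CR replicate 5 to 1.26 without CR replicate 2. CANA was above HFD by 0.51 (SE 0.55, limma adjusted p = 0.869), and by 0.16 without CANA replicate 3. CANA and CR differed by -0.41 (95% interval -1.52 to 0.70, limma adjusted p = 0.877), a value that ran from -0.76 to -0.09 as single arrays were left out.

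Other p53 targets were listed to set Cdkn1a beside them. Of 12 listed genes 9 were tested and none was called in any comparison. In CANA vs HFD 6 of the 9 were above zero (median 0.07). Trp53inp1, a stress-induced regulator of p53, was at 0.77 in CANA vs HFD (SE 0.23, limma adjusted p = 0.248) and at 0.42 in CR vs HFD (SE 0.21, limma adjusted p = 0.999). Ei24 was at 0.29 (SE 0.09, limma adjusted p = 0.265) and the cyclin gene Ccng1 at -0.25 (SE 0.10, limma adjusted p = 0.473) in CANA vs HFD.

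Errfi1 encodes an inhibitor of the epidermal growth factor receptor kinase, which glucocorticoids and growth factors induce. It was at 11.54, 11.46, 11.75 and 11.83 in HFD, 11.59, 11.79, 11.84 and 11.79 in CANA and 11.64, 11.79, 11.68, 11.76 and 11.93 in CR on the log2 scale. All 13 arrays lay within 0.47 log2 units, and the groups overlapped. Errfi1 differed by 0.11 in CANA vs HFD (95% interval -0.11 to 0.33, limma adjusted p = 0.841) and by 0.11 in CR vs HFD (95% interval -0.10 to 0.32, limma adjusted p = 0.999). CANA and CR differed by -0.00 (95% interval -0.21 to 0.20, limma adjusted p = 0.997). Leaving out HFD replicate 2 gave 0.047 and 0.052 for the differences of CANA and CR from HFD, and leaving out HFD replicate 4 gave 0.17 for both. Of 7 tested genes listed for the same receptor and its feedback none was called. In CANA vs HFD Egfr, the receptor gene, was at 0.28 (SE 0.16, limma adjusted p = 0.654) and its inhibitor Lrig1 at -0.33 (SE 0.14, limma adjusted p = 0.502). Spry4, which restrains growth factor signalling, was at -0.34 there (SE 0.25, limma adjusted p = 0.769).

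The 10 genes differed in how far arrays of the same group lay apart. The SD within groups was 0.97 in Cdkn1a, 0.92 in Mt2, 0.75 in Gadd45g and 0.64 in Mt1, above that of 99.9, 99.9, 99.6 and 99.4% of the tested genes. For Fkbp5 (0.31), Gadd45b (0.32) and Tsc22d3 (0.27) it was above that of 93.1, 93.3 and 87.7% of them. Sgk1 (0.22) and Errfi1 (0.13) lay at 74.6 and 24.2%. From the lowest to the highest array, Mt2 spanned 7.61-fold and Cdkn1a 7.41-fold, while Nr3c1 spanned 1.34-fold and Errfi1 1.38-fold.

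**Figure D4:**
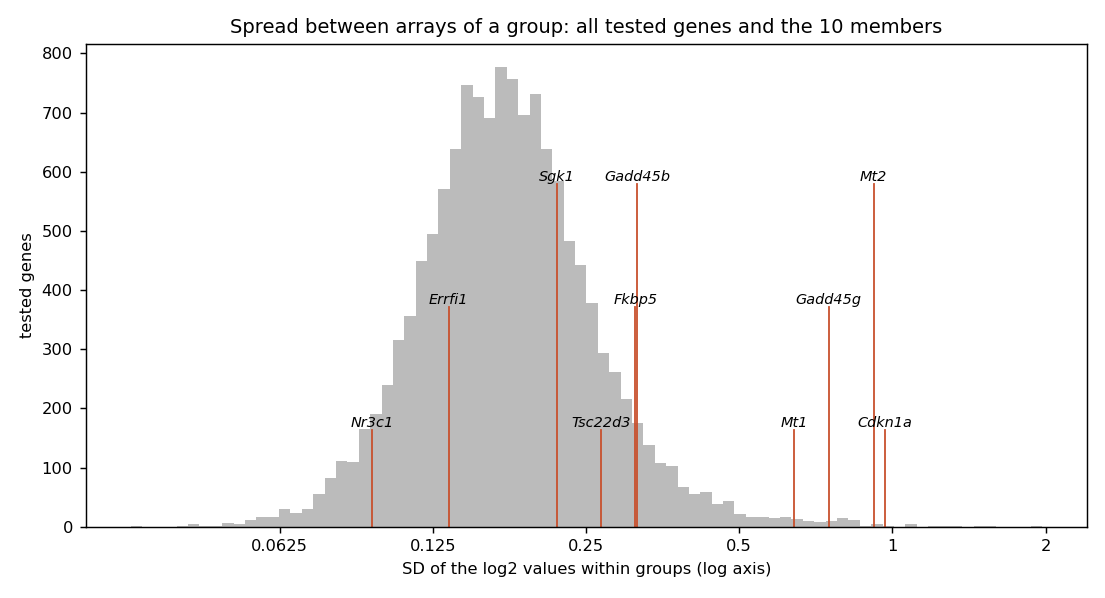
Number of tested genes (vertical axis) by the SD of their log2 values within groups (horizontal axis, log scale), with the 10 members marked by lines of arbitrary height. Mt1, Gadd45g, Mt2 and Cdkn1a lie in the right tail and Nr3c1 in the left one.

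The arrays carry a serial number in their labels, which do not say what it stands for, and the members were set against it. The 7 arrays numbered 1 to 8 hold 2 HFD, 2 CANA and 3 CR arrays and the 6 numbered 9 to 14 hold 2 of each group. In a fit with group and serial number, 9 of the 10 genes had a slope above 0, as did 47.5% of all tested genes. None was called, where 0.376% of all genes were, and 3 had an unadjusted p under 0.05, where 11.9% of all genes did. These were Cdkn1a (0.13 log2 units per number, SE 0.04, unadjusted p = 0.0105, limma adjusted p = 0.249), Errfi1 (0.023, SE 0.008, unadjusted p = 0.0120, limma adjusted p = 0.257) and Fkbp5 (0.037, SE 0.016, unadjusted p = 0.0337, limma adjusted p = 0.362). Cdkn1a averaged 5.28 ± 0.65 over the 7 lower numbers and 6.59 ± 0.79 over the 6 higher ones (SD), and Mt2 averaged 10.11 ± 0.73 and 10.95 ± 1.09. Nr3c1 (7.82 ± 0.16 and 7.79 ± 0.12) and Tsc22d3 (6.82 ± 0.29 and 6.85 ± 0.35) lay at like levels in both sets. The last serial number is that of CR replicate 5, which was above the gene mean in 9 of the 10 genes.

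**Figure D5:**
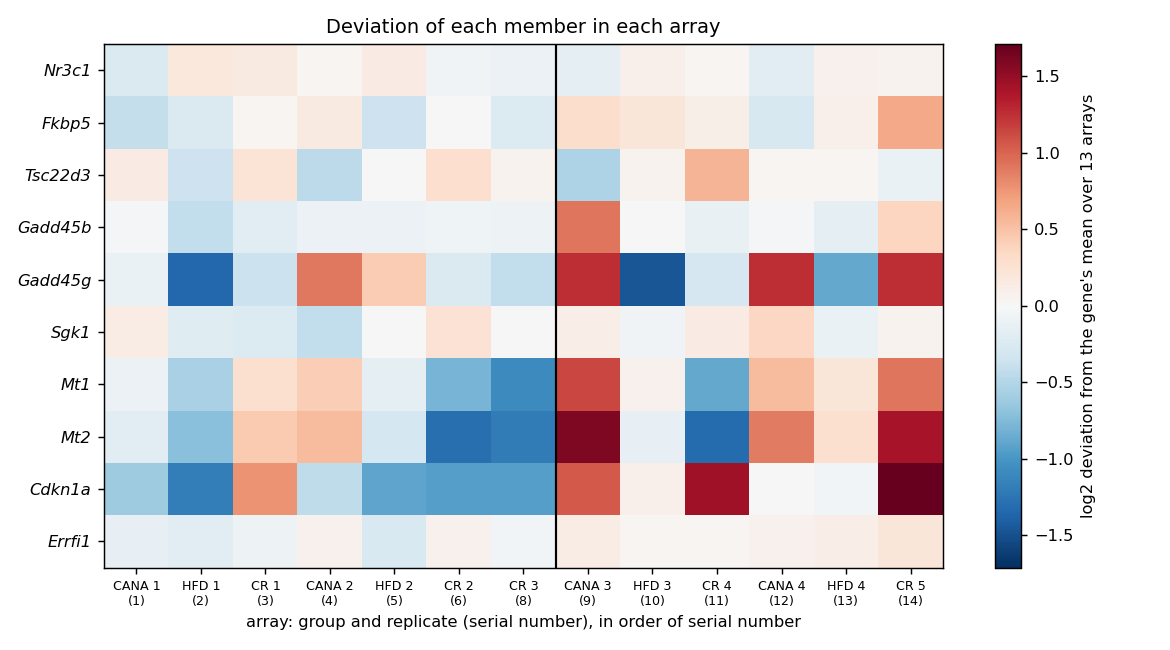
Log2 deviation of each gene (rows) from its mean over the 13 arrays, in each array (columns) ordered by serial number, with a line between numbers 8 and 9. Cdkn1a, Mt1, Mt2 and Gadd45g carry the deepest colours, and CR replicate 5 and CANA replicate 3 are high in most rows.

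Some members varied together across arrays. Of 45 pairs of members 29 had a correlation above 0, with a median r of 0.30. Beside the metallothioneins, Fkbp5 and Errfi1 had an r of 0.793 (rho 0.676, permutation p = 0.00107 for r, 0.0241 adjusted over 45 pairs), which was 0.765 without the 2 arrays farthest from the median of Errfi1, and 0.795 and 0.683 within the lower and higher serial numbers. Fkbp5 and Cdkn1a had an r of 0.751 (rho 0.687, permutation p = 0.00277, 0.0415 adjusted over 45 pairs), which was 0.642 without the 2 arrays farthest from the median of Cdkn1a, and 0.471 and 0.693 within the sets. By rho neither pair passed over the 45 (adjusted permutation p = 0.180 for both). These members are also the 3 with an unadjusted p under 0.05 for the serial number, and its part in the correlations was not tested beyond the values within the sets. Fkbp5 and Tsc22d3, the pair of classical targets, had an r of -0.193 (rho -0.264, permutation p = 0.530 for r, 0.682 adjusted over 45 pairs). All these permutations moved arrays freely between the groups, so the p-values do not set group differences aside. With the group means taken off, r was 0.820 for Fkbp5 and Errfi1, 0.736 for Fkbp5 and Cdkn1a and -0.469 for Fkbp5 and Tsc22d3, given without a p-value.

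For each gene the 3 most similar of 12155 named genes were taken by Pearson r over the 13 arrays, as a description, since the highest of so many is high by selection. Cpeb4 was the most similar gene to both Mt1 (r = 0.887) and Mt2 (r = 0.883), followed by Pex3 and Tlcd4 for Mt1 and by Nceh1 and Cidec for Mt2. Selenbp1 (r = 0.905), Spg20 and Fmo1 were nearest to Fkbp5, and Tm6sf2 (r = 0.906), Urad and Acnat2 to Cdkn1a. Gadd45b was nearest to Cda (r = 0.923), Pdk4 and Egr1, but by ranks its rho with them was 0.58, 0.47 and 0.38. Gadd45g had Clk1 (r = 0.879), Ppp2r2d and Ccdc28b, and Tsc22d3 had Dpm2 (r = 0.919), Cxcl9 and Usp39. Nr3c1 was nearest to Iqcn (r = 0.891), D5Ertd579e and Nrf1, Sgk1 to Ecel1 (r = 0.907), Cnot4 and Mylip, and Errfi1 to Tfr2 (r = 0.907), Kdm6a and Decr2.

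Genes of receptor co-chaperones and cofactors, listed with the mineralocorticoid receptor gene, were mostly below zero in CANA vs HFD, without any called gene. Of 12 listed 8 were tested, and 6 were below zero in CANA vs HFD (median -0.15), as in CR vs HFD (median -0.05). The cofactor genes Ncoa2 (0.05) and Hdac1 (0.18) were above zero in CANA vs HFD, as were 46.1% of all genes. Fkbp4, the co-chaperone that carries the receptor to the nucleus, was at -0.50 in CANA vs HFD (SE 0.13, unadjusted p = 0.00123, limma adjusted p = 0.166) and was at -0.17 in CR vs HFD (SE 0.12, limma adjusted p = 0.999). In CANA vs CR Fkbp4 was at -0.33 (SE 0.12, unadjusted p = 0.0158, limma adjusted p = 0.476). Hsp90aa1, a heat shock protein gene of the receptor complex, was at -0.35 in CANA vs HFD (SE 0.16, limma adjusted p = 0.532). In the same comparison the mineralocorticoid receptor gene Nr3c2 was at -0.30 (SE 0.18, limma adjusted p = 0.690).

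Genes of hormone supply and breakdown were all below zero in CANA vs HFD, 6 of 6 tested of 8 listed, with a median of -0.16 and none called, while 46.1% of all tested genes were above zero. In CR vs HFD 4 of the 6 were above zero (median 0.00). Hsd11b1, the enzyme that regenerates active hormone inside the liver cell, averaged 10.05 ± 0.07 in HFD (SD, n = 4), 9.75 ± 0.09 in CANA (n = 4) and 10.05 ± 0.13 in CR (n = 5). Its CANA vs HFD difference was -0.30 (SE 0.09, unadjusted p = 0.00532, limma adjusted p = 0.274) and its CR vs HFD difference 0.00 (SE 0.09, limma adjusted p = 1.00). Akr1d1, a steroid reductase that inactivates the hormone, was at -0.33 in CANA vs HFD (SE 0.18, limma adjusted p = 0.633), and Serpina6, the corticosteroid-binding globulin of plasma, at -0.18 (SE 0.14, limma adjusted p = 0.786). Cyp3a11 was at -0.02 (SE 0.17) and Abcb1a at -0.07 (SE 0.31) in that comparison, each well within its SE. In CANA vs CR all 6 were below zero (median -0.18) and none was called, where 48.8% of all genes were above zero. There Hsd11b1 was at -0.30 (SE 0.09, unadjusted p = 0.00367, limma adjusted p = 0.293). Akr1d1 was at -0.45 (SE 0.17, unadjusted p = 0.0164, limma adjusted p = 0.482). These 2 had an unadjusted p under 0.05, against 8.43% of all genes.

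Other glucocorticoid-induced genes, 22 tested of 24 listed, had 15 members above zero in CANA vs HFD (median 0.27) and 20 in CR vs HFD (median 0.19). None was called, while 9 had an unadjusted p under 0.05 in CANA vs HFD, all higher, where 3.63% of all genes were higher at that p. In CR vs HFD there were 3, all higher, against 1.73% of all genes. These were Ddit4 at 0.82 (SE 0.31), Cited2 at 0.50 (SE 0.23) and Per1 at 0.37 (SE 0.17), each at a limma adjusted p of 0.999. In CANA vs HFD Ddit4 was at 0.89 (SE 0.33, limma adjusted p = 0.404), Per1 at 0.31 and Cited2 at -0.04. The 7 below zero in CANA vs HFD were Bcl6 (-0.14), Glul (-0.07), Hif3a (-0.04), Cited2 (-0.04), Dusp1 (-0.03), Klf9 (-0.01) and Zbtb16 (-0.0019). Lists and members were chosen with earlier results of these data known, so these counts are not independent evidence. Pnpla2, the main triglyceride lipase, had the smallest p of the list at 0.70 (SE 0.14, unadjusted p = 1.26e-04, limma adjusted p = 0.0609). It passed in 5 of the 26 alternative fits, with limma adjusted p values from 0.0370 to 0.0482, and G6pc in 2. G6pc, the last enzyme of glucose production, was at 0.63 (SE 0.16, limma adjusted p = 0.160), and Cebpb, a transcription factor of gluconeogenic genes, at 0.41 (SE 0.10, limma adjusted p = 0.166). In CR vs HFD these 3 genes were at 0.23, 0.22 and 0.11, each at a limma adjusted p of 0.999.

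Hormone release follows the time of day, and the sampling time of the mice is not given in the labels. Of 12 tested clock genes none was called, and 6 were above and 6 below zero in CANA vs HFD (median -0.01). Per3 was at -0.40 (SE 0.12, unadjusted p = 0.00359, limma adjusted p = 0.245), Cry2 at -0.36 (SE 0.12, limma adjusted p = 0.370) and Tef at -0.26 (SE 0.13, limma adjusted p = 0.596). In CR vs HFD the same genes were at -0.05, -0.06 and 0.01. Nfil3, among the 6 above zero in CANA vs HFD, was at 0.55 there (SE 0.28, limma adjusted p = 0.609). In CANA vs CR 9 of the 12 were below zero (median -0.18). Of these, 3 had an unadjusted p under 0.05, against 8.43% of all genes. Clock genes peak at different hours, so counts of signs cannot show whether sampling time differed between groups, which was not tested.

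The arrays read liver by their markers. All 7 hepatocyte markers measured had means of 9.60 or more, and their summed level spanned 15.96 to 16.02 in HFD, 15.94 to 16.02 in CANA and 16.00 to 16.04 in CR on the log2 scale. Markers of Kupffer cells, sinusoidal endothelium and stellate cells were measured for 8 of 8 genes each, and none was called. Kupffer cell markers summed to 9.54 to 10.45 in HFD, 9.86 to 10.35 in CANA and 9.29 to 10.29 in CR, with a median difference of 0.12 in CANA vs HFD and -0.10 in CR vs HFD. Sinusoidal endothelium markers summed to 10.85 to 11.23 in HFD, 10.66 to 11.21 in CANA and 10.89 to 11.32 in CR, with a median difference of -0.16 in CANA vs HFD and -0.21 in CANA vs CR. Most markers of neutrophils, adipocytes and pancreas were under the limit for dim genes or were not analysed here, among them S100a8, S100a9, Adipoq and Cpa1, and red cell markers were not analysed here. The part of other cell types in the values above was not tested.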

How the data were processed

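Liver RNA of 13 arrays was measured. The deposited log2 values come from RMA (background correction, quantile normalisation and probe summary), run by the authors in Expression Console of Affymetrix, per the submitters' processing notes, with no version or genome build given in the sources used here. The labelling reaction took 250 ng of RNA per the labels. The table held 41345 probe sets, with array medians of 4.07 to 4.13. Array signal has no read depth, so precision rests on how many arrays there are and on how far their values spread.

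Probe sets with exactly 1 symbol (23521, of which 23328 matched RefSeq by Entrez identifier) gave 22180 genes, each by its probe set with the highest mean. Genes below the 40th percentile of means (3.95) were left out, which left 13308. A single limma 3.58.1 fit (R 4.3.3) to all arrays, with no covariates, 10 residual and 5.71 prior degrees of freedom, gave two-sided tests with Benjamini-Hochberg adjustment over all tested genes, and a gene was called at an adjusted p under 0.05. A fit with group and serial number tested the latter. Correlations used Python with NumPy 2.4.6. Alternatives changed the filter, the normalisation, the model and the arrays used. Named from each list were up to 3 genes with the smallest p in CANA vs HFD. Further genes of some lists were named beside them, none of them called. The members and lists were chosen with earlier results of these data known.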

Additional observations from a re-analysis of the deposited data

Results flagged for a closer look

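In 30 groups of arrays (10 genes in 3 groups), 4 had an array whose distance to its nearest neighbour took up most of the group's range by Dixon's criterion, which chance meets in about 1 of 20 groups. Gadd45b stood at 5.83 in CANA replicate 3, with the next CANA array at 4.91, and at 5.29 in CR replicate 5, with the next CR array at 4.85. Gadd45g stood at 8.97 in CR replicate 5, with the next at 7.46. Tsc22d3 was low in HFD replicate 1, at 6.48, with the next at 6.84, and without that array its CANA vs HFD difference was -0.23. Of the 4, 2 concern CR replicate 5, the array with the last serial number.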

How the results depend on the processing

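No member passed a limma adjusted p of 0.05 in any of the 3 comparisons under the 13 alternatives of processing or the 13 fits that each left out 1 array, and the lowest was 0.0751, for Gadd45g in CANA vs HFD. Gadd45b fell below the filter at the 60th percentile of means and was not tested under that alternative. Over all genes the called number in CANA vs HFD (22) ran from 0 (serial numbers 9 to 14) to 46 (serial-number set as a term). Arrays with the same replicate number did not all deviate together (12 pairs, r from -0.15 to 0.30, 7 over 0.1). Pairs with different numbers were not computed, so whether the number pairs the arrays was not tested. The fit with the replicate block called 29 genes in CANA vs HFD and no member. Of 986 values of single genes 955 kept their sign and call and 31 turned sign, for which the cause was not tested. Errfi1 in CANA vs CR was 0.037 with the replicate block and 0.039 with the serial number as a covariate. Sgk1 in CANA vs CR was -0.0033 with arrays centred on the median, -0.0021 after quantile normalisation, -0.013 with the serial-number set as a term and -0.15 in serial numbers 1 to 8, where it was -0.043 in CANA vs HFD. Tsc22d3 in CANA vs HFD was 0.018 in serial numbers 1 to 8, and its slope by serial number -3.9e-04 with arrays centred on the median. Fkbp5 in CANA vs HFD was -0.14 in serial numbers 9 to 14. Leaving out 1 array at a time gave -0.035 to 0.050 for Errfi1, -0.031 to 0.31 for Gadd45b and -0.10 to 0.16 for Sgk1 in CANA vs CR. It gave -0.10 to 0.14 for Fkbp5 in CANA vs HFD, -0.62 to 0.061 for Mt2 in CR vs HFD and -0.0093 to 0.016 for the slope of Tsc22d3. With 4 or 5 arrays a group, differences smaller than the intervals in the report cannot be told from 0.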
